A study of Mus musculus with 3 samples.

Results

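The genes described here encode the working parts of the lysosome: 32 hydrolases, 3 soluble cofactors of lipid breakdown (Npc2, Psap and Gm2a), 8 membrane proteins, and 6 genes of the V0 sector of the vacuolar proton pump with its accessory proteins. They were taken by gene name from a list chosen with earlier results of these data known, and all 49 were found among the 27720 gene names on the arrays. The hydrolases are 11 proteases, 11 glycosidases, 4 sulfatases, 4 lipid hydrolases and 2 phosphatases. The V0 genes are the subunits Atp6v0a1, Atp6v0b, Atp6v0c and Atp6v0d1 and the accessory proteins Atp6ap1 and Atp6ap2.

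RNA came from J774A.1, an established mouse macrophage-like cell line, after 6 h in 1 of 3 media. The first was Earle's Balanced Salt Solution (EBSS), which holds salts and glucose and no amino acids, with 10 µM SB202190, a small molecule that inhibits p38 MAP kinases. The second was EBSS alone, and the third RPMI medium with 10% fetal bovine serum, called RPMI below. Each medium was read on 2 of 3 two-colour arrays, once in Cy5 and once in Cy3, so the arrays closed a loop and each medium was treated as 1 sample. The media are those of the source names in the labels, as the design text can also be read as RPMI under all 3. It is not stated whether both channels of a medium came from the same RNA extract. No p-value was therefore computed, and every error given is technical. The labels name no solvent control for the inhibitor, so effects of inhibitor and solvent cannot be told apart.

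Lysosomes break down proteins, glycans, lipids and nucleic acids delivered by endocytosis, phagocytosis and autophagy. The hydrolases work in an acidic lumen, which the vacuolar proton pump maintains: its V1 sector splits ATP in the cytosol, and its V0 sector carries protons through the membrane. Membrane proteins such as LAMP1 line the organelle, and others carry its products out. In mammals many of these genes hold CLEAR elements in their promoters, sites built on CACGTG that TFEB, TFE3 and MITF bind, and TFEB moves to the nucleus when amino acids run short. Macrophages are rich in lysosomes, which they use to digest what they engulf.

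Promoter windows from RefSeq, on build GRCm38.p6, reached from 250 bases before to 50 bases after each annotated start. They were found for 45 of the 49 genes. Asah1, Ctsb, Ctsh and Npc1 had no window and are absent from all motif results. The letters CACGTG, which read the same on both strands, stood in the windows of 15 of these 45 genes (33.3%), against 8.09% of the 27025 genes with a window. With a T before or an A after them (TCACGTG on either strand, which holds the shorter motif), they stood in 14 of the 45 (31.1%), against 4.29% of all genes. The 14 were 9 of 29 hydrolases, 3 of 7 membrane proteins (Lamp1, Mcoln1 and Cln3), 2 of 6 V0 genes (Atp6v0d1 and Atp6v0b) and 0 of 3 cofactors. The 10-letter form, with GT before and AC after the 6 letters, stood in Cln3 only (2.22%), against 0.37% of all genes. By window, CACGTG stood in 28.3% of 53 member windows, against 7.15% of 32851 windows of this length. A match is a match of letters and not a measured site.

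The stretches below are from the 3 members with the highest ratio of EBSS over RPMI that had a match (Gla, Atp6v0d1 and Cln3), from Lamp1, which had the most matches, from Atp6v0b, the second V0 gene with one, and from Sgsh, whose ratio ran the other way. Each is written 5′ to 3′ on the strand of its gene, with CACGTG in capitals.
Gla, chrX:134601182-134601244, minus strand: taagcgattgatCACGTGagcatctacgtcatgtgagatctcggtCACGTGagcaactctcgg
Atp6v0d1, chr8:105566050-105566079, minus strand: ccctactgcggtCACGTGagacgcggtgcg
Cln3, chr7:126583340-126583397, minus strand: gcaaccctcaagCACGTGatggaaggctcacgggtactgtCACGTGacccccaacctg
Lamp1, chr8:13159088-13159160, plus strand: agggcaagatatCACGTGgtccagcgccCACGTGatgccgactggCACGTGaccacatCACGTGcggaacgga
Atp6v0b, chr4:117887330-117887377, minus strand: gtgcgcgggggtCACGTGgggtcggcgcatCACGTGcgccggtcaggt
Sgsh, chr11:119355522-119355551, minus strand: gggcctgccgtgCACGTGaccgtggggagc
The 4 matches of Lamp1 began between 61 and 15 bases before the start, and the 2 of Gla lay farther upstream, at 227 and 194 bases before it. That of Atp6v0d1 began 3 bases before the start. Atp6ap2, one of the 3 genes counted as higher below, had a window and no match.

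**Figure D1:**
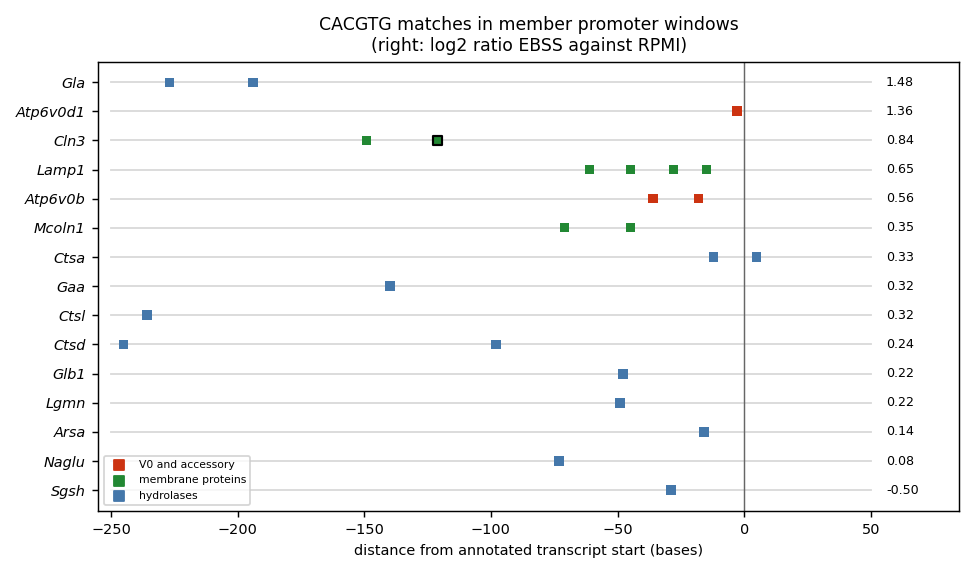
Positions of CACGTG (squares, coloured by class) in the promoter windows of the 15 members that hold it, in bases from the annotated transcript start. Genes run from the highest to the lowest log2 ratio of EBSS over RPMI, printed at the right, so that Gla (1.48) is at the top and Sgsh (-0.50) at the bottom, and the outlined square in Cln3 is the 10-letter match.

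A gene was taken as measured in a comparison when, for 1 or both of the media compared, its probe was marked well above background on each array of that medium. By this rule 46 of the 49 genes were measured, and these were well above background in all 6 channels. The other 3 were Cd63, a tetraspanin, Acp5, a phosphatase, and Ctsk, a protease best known from osteoclasts. Cd63 and Acp5 were not well above background in any channel, and Ctsk was so in 1 EBSS channel only, so they have no ratio here. Each of the 3 had 1 probe.

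The line's label was checked against 10 macrophage markers, all of which were measured, whereas of 15 markers of other cell types 1 was (Hba-a1, with a log2 ratio of 0.03 for EBSS over RPMI). Starvation was checked on 3 genes of the amino acid response. Log2 ratios of EBSS over RPMI were 0.96 for Asns, 3.32 for Ddit3 and 3.08 for Trib3. Between 40.1% and 49.9% of spots were well above background in a channel. Summed around the loop, log2 ratios would come to 0 without error and without dye effects of the probes. The robust SD of this sum was 0.253 over the 10790 genes well above background in all channels. A constant dye effect of a probe enters the sum, but cancels in the ratio fitted to the loop.

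The first comparison sets cells starved in EBSS against fed cells. EBSS lacks serum and other parts of the fed medium as well as amino acids, and these cannot be told apart here. In EBSS against RPMI, 3 of the 46 measured genes were counted as higher and none as lower: Gla, Atp6v0d1 and Atp6ap2. Counting required a log2 ratio of 1 or more in size. It also required 0.5 or more with the same sign on 2 paths: the array that held the 2 media, and the other 2 arrays. A constant dye effect of a probe moves these paths in opposite directions and cancels in the fitted ratio. The 3 genes are 6.52% of the measured members, and among all 11899 measured genes the shares were 4.49% higher and 2.83% lower. The ratios of each array were centred along intensity by loess. Less RNA per cell and fewer cells therefore cannot be told apart, nor seen, in these ratios. Below that size the members leaned one way: 38 of 46 had a ratio above 0, with a median of 0.26, whereas over all measured genes 50.47% did, with a median of 0.00.

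**Figure D2:**
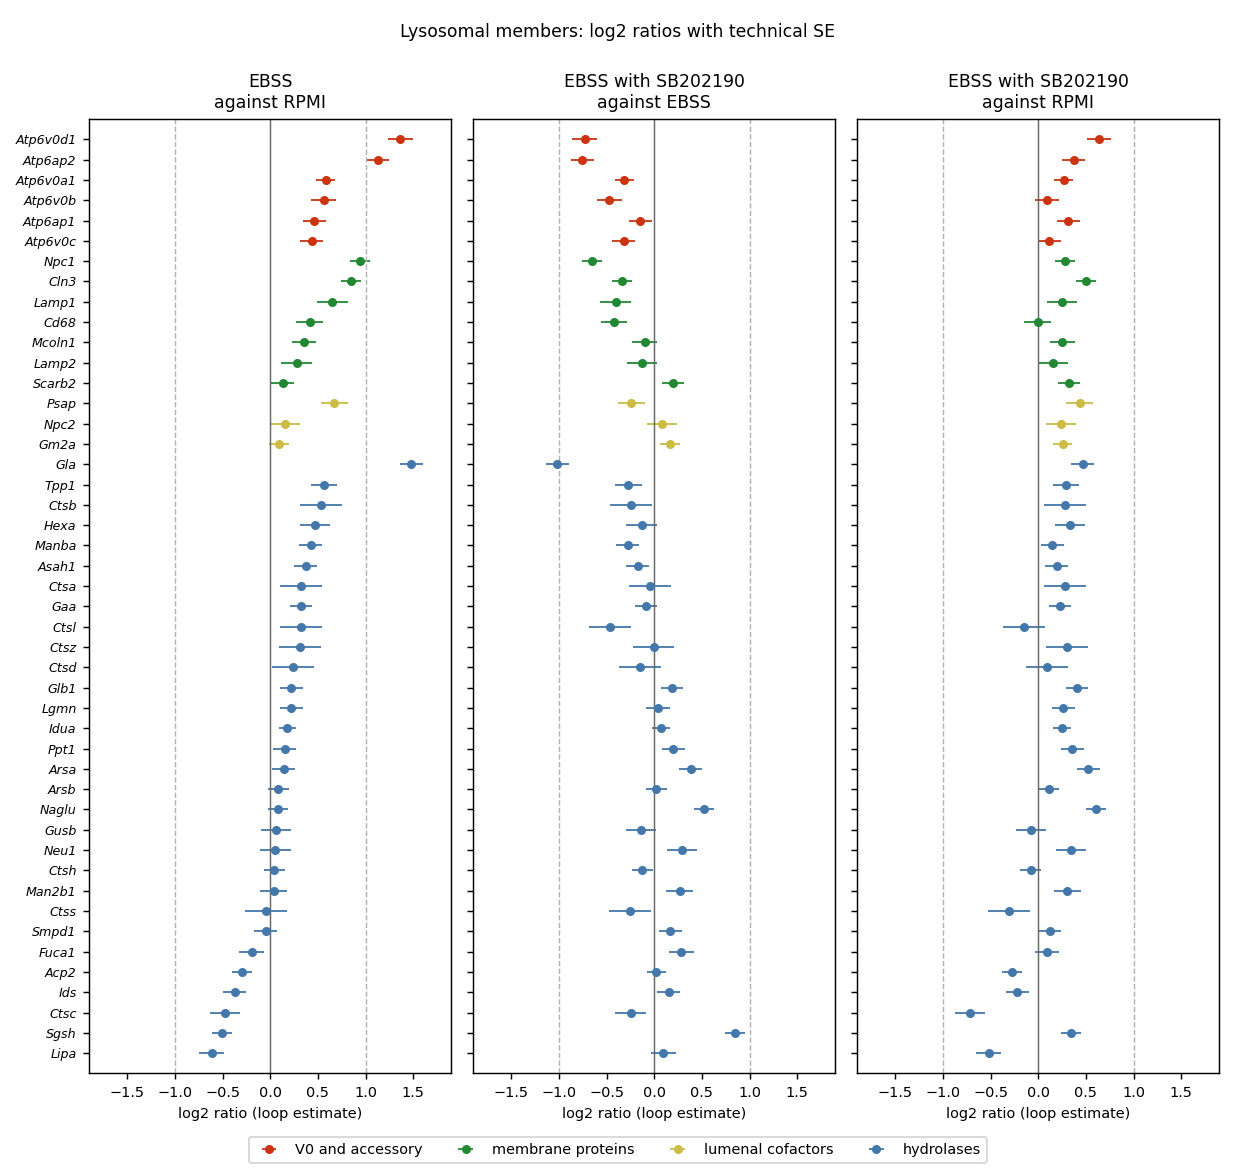
Log2 ratios (x axis) of the 46 measured members, a row for each, in the 3 comparisons, with bars of 1 technical SE, coloured by class. Dashed lines mark a ratio of 1 in size. In the left panel every V0 and membrane gene lies above 0, and in the middle panel every V0 gene lies below 0.

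Gla encodes alpha-galactosidase A, which removes terminal galactose from glycolipids. Its normalized log2 intensity was 13.14 and 13.03 in the 2 EBSS channels, against 11.62 and 11.52 in the 2 RPMI channels. The channels of the media did not overlap, and the ratio was 1.48 (technical SE 0.12), a 2.79-fold difference. Its probe lies at chrX:129936255-129936314 (mm8, the build of the files). A second, dimmer probe at chrX:129935031-129935089 gave 1.25. Channels are readings of 1 sample per medium, and the share of all measured genes without overlap is not given. Lack of overlap is thus a description only, here and below.

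Atp6v0d1 encodes subunit d1, which joins the membrane ring to the central stalk of V1. Its intensity was 13.56 and 13.59 in EBSS, against 12.23 and 12.12 in RPMI. This is a ratio of 1.36 (SE 0.13), or 2.57-fold, from 1 probe at chr8:108414007-108414066. Atp6ap2, also called the prorenin receptor, is needed for assembly of the pump. It had 12.64 and 12.84 in EBSS, against 11.58 and 11.61 in RPMI, a ratio of 1.13 (SE 0.12) or 2.18-fold, from 1 probe at chrX:11773457-11773516. Both V0 genes, like Gla, gave nearly the same ratio on either path: 1.33 and 1.43 for Atp6v0d1, 1.06 and 1.26 for Atp6ap2, and 1.52 and 1.41 for Gla.

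**Figure D3:**
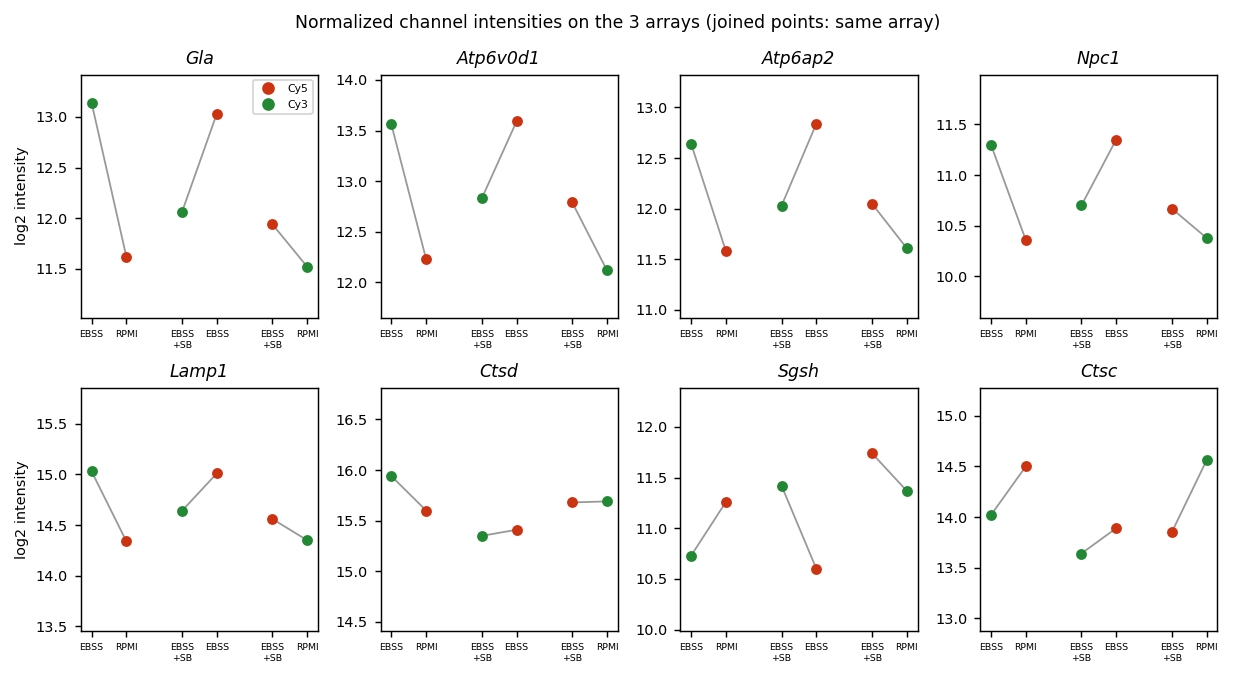
Normalized log2 intensity (y axis) of 8 members in the 6 channels. Each joined pair is 1 array, and red and green mark Cy5 and Cy3. For Gla, Atp6v0d1, Atp6ap2, Npc1 and Lamp1 both EBSS channels lie above all RPMI channels and above all channels with SB202190, and for Sgsh both lie below them.

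The other V0 genes also had ratios above 0, of 0.44 to 0.58. Atp6v0a1, a large subunit that lines the proton path, had 10.43 and 10.28 in EBSS, against 10.00 and 9.32 in RPMI, a ratio of 0.58. Of its 2 other probes one, dimmer but measured, gave -0.23, and the last was not measured. Atp6v0b and Atp6v0c, which form the rotating ring, had ratios of 0.56 and 0.44. The paths differed widely for Atp6v0b, with 0.83 on the array of both media and 0.02 through the other arrays. Atp6ap1, the accessory protein Ac45, had 0.46. The median of the 6 was 0.57.

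Among the membrane proteins all 7 measured genes had a ratio above 0, none of them counted, with a median of 0.41. The highest was Npc1, which moves cholesterol out of the lysosome. It had 11.30 and 11.35 in EBSS, against 10.36 and 10.38 in RPMI, a ratio of 0.94 (SE 0.11), just under the size required. With equal spread between arrays it was 1.05, and with the scanner software's ratios, as in the authors' deposited table, 1.06, so that it was counted under these. Cln3, the protein affected in juvenile Batten disease, had 11.62 and 11.74 in EBSS, against 10.85 and 10.71 in RPMI, a ratio of 0.84. Lamp1, a main glycoprotein of the lysosomal membrane, had 15.03 and 15.01 in EBSS, against 14.34 and 14.35 in RPMI, a ratio of 0.65 (SE 0.16). None of these 3 had overlapping channels, which is a description without a share over all measured genes.

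Cd68, a macrophage relative of the LAMP proteins, had 13.80 and 13.65 in EBSS, against 13.21 and 13.52 in RPMI, a ratio of 0.41. Mcoln1, the calcium channel TRPML1, had a ratio of 0.35, from 0.62 on one path and -0.17 on the other. The paths alone thus did not settle its sign. Lamp2 had 0.28 and Scarb2, the receptor that carries glucocerebrosidase to lysosomes, 0.13. For Lamp2 a second bright probe at chrX:34649759-34649818, designed on another transcript of the gene than the one used, gave 0.61.

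Hydrolases were more mixed, with a median of 0.15, 22 of 30 above 0 and a range of -0.62 to 1.48. Proteases had a median of 0.28. The highest was Tpp1, a tripeptidyl peptidase, with 14.17 and 14.09 in EBSS, against 13.51 and 13.48 in RPMI, a ratio of 0.56. The lowest was Ctsc, which activates serine proteases of immune granules, with 14.02 and 13.89 in EBSS, against 14.50 and 14.56 in RPMI, a ratio of -0.47 (SE 0.16). Proteases thus lay on both sides of 0.

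The cathepsins with the brightest probes were not counted. Channels of the 2 media overlapped for Ctsd and Ctsl, and did not for Ctsb and Ctsz. Ctsb had 16.14 and 16.27 in EBSS, against 15.72 and 15.60 in RPMI, a ratio of 0.53 (SE 0.22), and a much dimmer second probe gave 1.12. Ctsd, an aspartic protease, had 15.94 and 15.41 in EBSS, against 15.60 and 15.69 in RPMI, with overlapping channels and a ratio of 0.24 (SE 0.22). Ctsl had 16.32 and 16.23 in EBSS, against 16 and 16.26 in RPMI, also overlapping, with a ratio of 0.32 (SE 0.22). Ctsz had 16.17 and 16.26 in EBSS, against 16.01 and 15.67 in RPMI, a ratio of 0.31 (SE 0.22). The others, Ctsa, Lgmn, Ctsh and Ctss, ran from 0.33 to -0.05. The paths had opposite signs for Ctss (-0.32 and 0.51) and for Ctsh (-0.01 and 0.16).

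Of the 11 glycosidases Gla alone was counted, and the median was 0.18. Hexa and Manba followed at 0.47 and 0.43, Gaa, Glb1 and Idua lay between 0.32 and 0.18, and Naglu, Gusb, Neu1 and Man2b1 lay between 0.08 and 0.04. For Gusb and Man2b1 the paths had opposite signs. The lowest, Fuca1, which removes fucose, had -0.19. Gla was thus set apart from the other glycosidases by about 1 log2 unit.

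Of the 8 hydrolases with a ratio below 0, 4 were sulfatases or lipid hydrolases. The 4 sulfatases had a median of -0.14, between 0.14 for Arsa, which acts on sulfatide, and -0.50 (SE 0.10) for Sgsh, which acts on heparan sulfate. Sgsh had 10.73 and 10.60 in EBSS, against 11.26 and 11.37 in RPMI, without overlap. Ids had -0.37 and Arsb 0.09. A second, dim Sgsh probe gave -0.03.

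The lipid hydrolases ran from 0.37 for Asah1, the acid ceramidase, through Ppt1 (0.15) and Smpd1 (-0.05) to -0.62 (SE 0.13) for Lipa, the lysosomal acid lipase. Lipa was the lowest of all 46, with 12.49 in both EBSS channels, against 13.02 and 13.10 in RPMI, and its second probe was not measured. The 1 measured phosphatase, Acp2, had -0.30. Of the cofactors Psap, the precursor of the saposins, had 13.76 and 13.61 in EBSS, against 12.92 and 13.07 in RPMI, a ratio of 0.67. Npc2 and Gm2a had 0.15 and 0.09. For Smpd1 and Npc2 the paths had opposite signs.

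At a size of about 1.5-fold (a log2 ratio of at least 0.58, and 0.29 on each path), 8 members were higher (17.4%): Gla, Psap, Lamp1, Npc1, Cln3, Atp6v0d1, Atp6v0a1 and Atp6ap2. The share over all measured genes was 10.9%. Lipa alone was lower (2.17%), against 8.97% of all measured genes. The 8 held 2 of 33 measured hydrolases and cofactors, 3 of 7 membrane proteins and 3 of 6 V0 genes, of which Atp6v0a1 lay at the threshold itself.

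The V0 median exceeded the hydrolase median by 0.42 and the membrane median exceeded it by 0.26. With no replicate cultures the spread of these differences between cultures is unknown, and they were not tested. The probes of the members were bright: the median log2 intensity over all measured genes was 10.6, and that of the hydrolases was 12.9, of the cofactors 13.4, of the membrane proteins 12.9 and of the V0 genes 12.3. The scaling of the arrays bore on the level of all of these ratios. With each array centred on its median in place of loess, the median over all measured genes became 0.81, and 1.28 in the brightest 10% of genes, against -0.12 in the same genes with loess. The share of counted genes that were higher became 99.5%, against 61.3% with loess and 46.9% with the scanner software's ratios. Relative to the median of all genes, the centred arrays gave 0.87 for V0, 0.86 for membrane proteins, 0.71 for cofactors and 0.56 for hydrolases. So by median the V0 and membrane members stood above hydrolases under both scalings. This does not extend to the 4 other measured V0 genes described below, which had a median of 0.01 with loess. Between the scalings 6 single members changed sides of the all-gene median. Ctsc, Ctss, Fuca1 and Smpd1 were above it with centred arrays and below it with loess, and Ctsh and Idua the other way round. The part of brightness in these results was not tested.

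**Figure D4:**
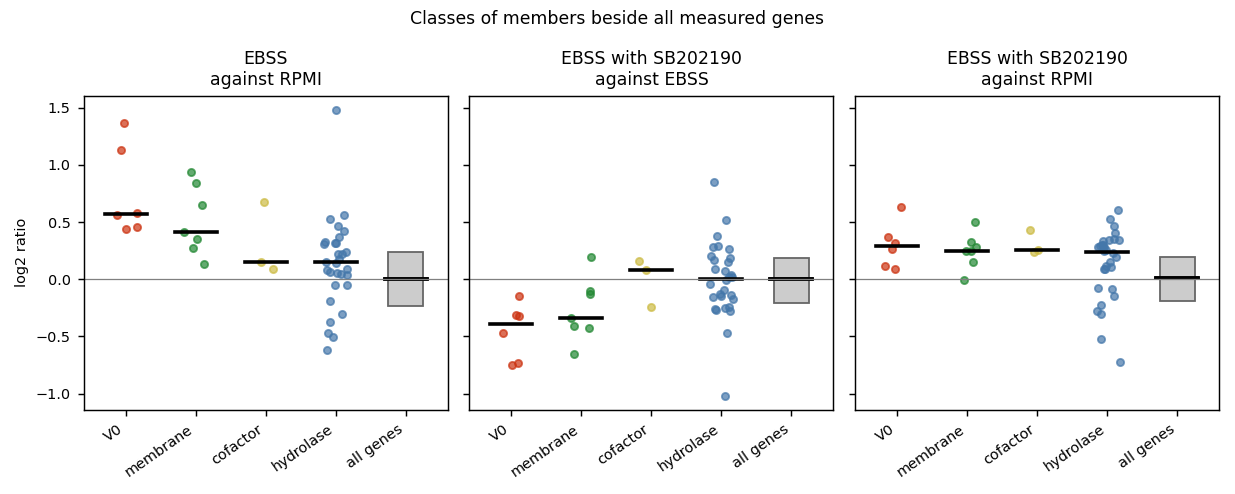
Log2 ratios (y axis) of measured members by class in the 3 comparisons, with a black bar at each median. The grey box spans the quartiles of all measured genes, -0.24 to 0.24 in EBSS over RPMI. V0 and membrane medians lie above the box in the left panel and below it in the middle one, and the 4 classes lie together in the right one.

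**Figure D5:**
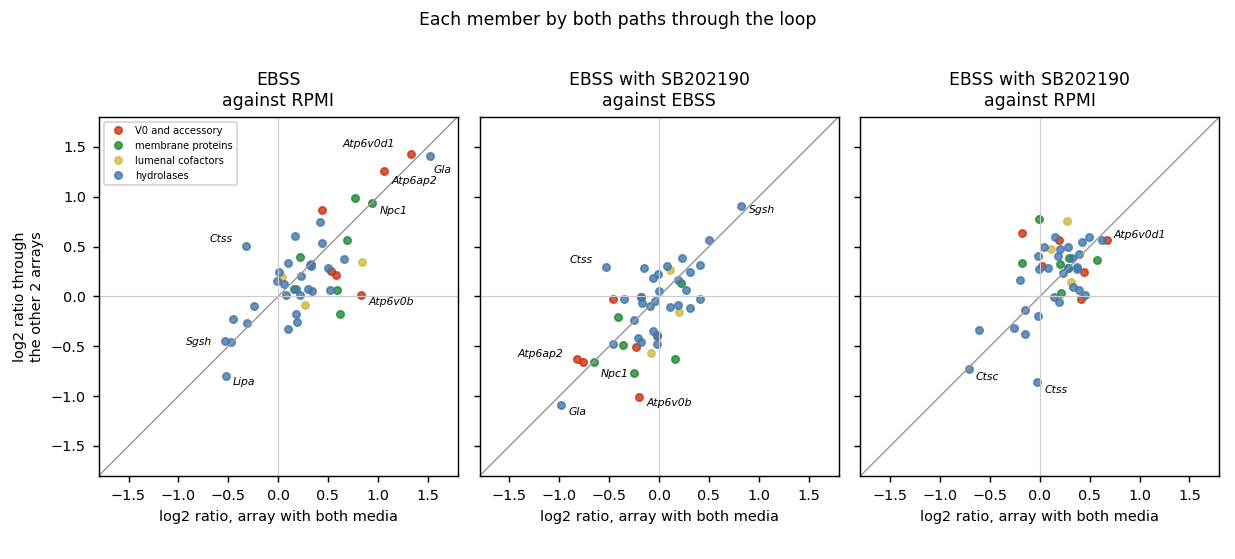
Each measured member by its log2 ratio on the array that held both media (x axis) and by the path through the other 2 arrays (y axis), coloured by class, with the line of equality. Gla, Atp6v0d1, Atp6ap2 and Npc1 lie on or near the line, and Ctss and Atp6v0b lie well away from it.

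The second comparison asks what the p38 inhibitor did in starved cells. In EBSS with SB202190 against EBSS, 1 of 46 measured members was counted as lower (2.17%), which was Gla, and none as higher. Among all 11714 measured genes the shares were 2.93% lower and 0.896% higher. All 6 V0 genes and 6 of 7 membrane proteins had ratios below 0, whereas 15 of 30 hydrolases did. The medians were -0.40 for V0, -0.34 for membrane proteins, 0.08 for cofactors and 0.01 for hydrolases, against 0.00 for all genes. This comparison shares its EBSS sample with the first one, so an error in the EBSS channels would move the 2 in opposite directions.

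Gla had 12.06 and 11.94 in EBSS with SB202190, against 13.03 and 13.14 in EBSS. The channels did not overlap, and the ratio was -1.02 (SE 0.12), from -0.98 and -1.09 on the 2 paths. The dimmer probe gave -0.70, so the count rests on the brighter probe. Atp6ap2 had 12.03 and 12.05 with SB202190, against 12.84 and 12.64 in EBSS, a ratio of -0.75 (SE 0.12). Atp6v0d1 had 12.83 and 12.79 with SB202190, against 13.59 and 13.56 in EBSS, a ratio of -0.73 (SE 0.13). For each of these 3 genes the channels with SB202190 lay between those of EBSS and RPMI.

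The remaining V0 genes had ratios of -0.47 for Atp6v0b (-0.20 and -1.01 on the 2 paths), -0.32 for Atp6v0c, -0.31 for Atp6v0a1 and -0.15 for Atp6ap1. Among membrane proteins Npc1 had the lowest, with 10.70 and 10.67 with SB202190, against 11.35 and 11.30 in EBSS, a ratio of -0.66 (SE 0.11). Cd68 had -0.42, from 13.40 and 13.33 with SB202190, against 13.65 and 13.80 in EBSS. Lamp1 had 14.64 and 14.56 with SB202190, against 15.01 and 15.03 in EBSS, a ratio of -0.41. Cln3 followed at -0.34, Lamp2 at -0.13 and Mcoln1 at -0.10, and Scarb2 stood on the other side at 0.19. The second bright Lamp2 probe gave -0.47. The paths for Mcoln1 were 0.16 and -0.63, so the paths alone did not settle its sign.

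The medians of the hydrolases differed by subclass, which was not tested. Proteases were mostly below 0, with a median of -0.20 and 1 of 10 above it, and Ctsl was the lowest at -0.47 (SE 0.22), with 15.77 and 16.11 with SB202190, against 16.23 and 16.32 in EBSS. Ctsb had 15.91 and 15.99 with SB202190, against 16.27 and 16.14 in EBSS, a ratio of -0.25. Ctsz (-0.01), Ctsa (-0.04) and Ctsd (-0.15) lay below 0 by less than their SE of 0.22. The paths for Ctss, Ctsz and Lgmn had opposite signs. All 4 sulfatases were above 0, with a median of 0.27. Of these, Arsb had 0.02 (SE 0.11), with paths of -0.06 and 0.18, Ids 0.15 (SE 0.12) and Arsa 0.38 (SE 0.12). Sgsh led them, with 11.42 and 11.74 with SB202190, against 10.60 and 10.73 in EBSS, a ratio of 0.85 (SE 0.10), and it had 11.37 and 11.26 in RPMI. Its channels with SB202190 lay above those of both other media. Naglu, which acts on heparan sulfate as Sgsh does, had the next highest ratio at 0.52, with 11.42 and 11.47 with SB202190, against 10.92 and 10.83 in EBSS.

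At 1.5-fold, 4 members were lower (8.7%), Gla, Npc1, Atp6v0d1 and Atp6ap2, and over all measured genes 8.98% were. Sgsh alone was higher, against 5.13% of all measured genes. The V0 median lay 0.40 below the hydrolase median and the membrane median 0.35 below it. With arrays centred on their medians the all-gene median became -0.45, and the share of counted genes that were higher became 2.4%, against 23.4% with loess and 50.2% with the scanner software's ratios. Relative to the all-gene median, V0 stood then at -0.69, membrane proteins at -0.56, cofactors at -0.32 and hydrolases at -0.21. In this scaling 11 members above the all-gene median with loess lay below it, among them Ids of the sulfatases, Npc2 and Scarb2. Of the macrophage markers, 2 of 10 were counted as lower, Cd14 at -1.56 and Fcgr1 at -1.31, and with SB202190 against RPMI the same 2 were lower, at -1.94 and -1.38. Over all measured genes 2.93% were counted as lower against EBSS and 2.42% against RPMI. The part of these markers in the lysosomal ratios was not tested.

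The third comparison sets starved cells with the inhibitor against fed cells. Each fitted ratio here is the sum of those in the first and second comparisons, so it is not independent of them. In EBSS with SB202190 against RPMI, none of the 46 measured members was counted in either direction, where 1.46% of the 11886 measured genes were higher and 2.42% lower. The class medians were close, at 0.29 for V0, 0.25 for cofactors, 0.25 for membrane proteins and 0.24 for hydrolases. Of the 46, 37 had a ratio above 0, with a median of 0.25 against 0.01 for all genes. The V0 median minus that of hydrolases was 0.05, and -0.01 with centred arrays and -0.03 with equal spread between arrays. For membrane proteins it was 0.01, and -0.02 with equal spread, so neither difference had a settled sign.

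At 1.5-fold, Atp6v0d1 and Naglu were higher, against 5.32% of all measured genes. Atp6v0d1 had 12.79 and 12.83 with SB202190, against 12.12 and 12.23 in RPMI, a ratio of 0.64 (SE 0.13). Naglu had 11.47 and 11.42, against 10.84 and 10.77 in RPMI, a ratio of 0.60 (SE 0.11). Ctsc alone was lower, against 7.4% of all measured genes, with 13.85 and 13.64 with SB202190, against 14.56 and 14.50 in RPMI, a ratio of -0.72 (SE 0.16). Ctsc was thus lowest with SB202190 of the 3 media and highest in RPMI.

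For the rest, Lipa had -0.52 and stayed near its EBSS level, with 12.48 and 12.68 with SB202190, against 13.10 and 13.02 in RPMI. Gla had 0.46, Cln3 0.50, Npc1 0.28 and Lamp1 0.25, with 14.56 and 14.64 with SB202190, against 14.35 and 14.34 in RPMI. Cd68 had -0.01 and Ctsd 0.09, with 15.68 and 15.35 for Ctsd with SB202190, against 15.69 and 15.60 in RPMI. Psap had 13.34 and 13.53, against 13.07 and 12.92 in RPMI, a ratio of 0.43. With centred arrays the all-gene median became 0.34, and the share of counted genes that were higher 62.7%, against 37.5% with loess.

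The members are a part of the lysosomal genes on the arrays, and lists of others were set beside them. For all lists here and below, the shares counted over all measured genes serve as background. They were 4.49% higher and 2.83% lower in EBSS against RPMI. With SB202190 they were 0.896% higher and 2.93% lower against EBSS, and 1.46% higher and 2.42% lower against RPMI. Of 8 measured V1 subunits 4 were counted as higher in EBSS against RPMI, with a median of 1.19, led by Atp6v1d (1.77), Atp6v1c1 (1.55) and Atp6v1a (1.46). None of the 4 other measured V0 genes was counted, and they had ratios of 0.44 for Tcirg1, 0.37 for Atp6v0e, -0.35 for Atp6v0a2 and -0.44 for Atp6v0e2. With SB202190 against EBSS, 5 of 8 V1 subunits were lower, with a median of -1.10, led by Atp6v1a (-1.53), Atp6v1h (-1.32) and Atp6v1c1 (-1.19). Against RPMI their median was 0.06 and none was counted. The V0 medians were smaller in size in the first and second comparisons, at 0.57 and -0.40, and the ranges of single V1 and V0 genes overlapped in both.

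Of 30 other measured membrane proteins 7 were higher in EBSS against RPMI, where 4.49% of all measured genes were. They were led by Litaf (2.23), the cystine exporter Ctns (1.83) and Lmbrd1 (1.66), which releases vitamin B12. With SB202190 against EBSS 3 of them were lower, where 2.93% of all measured genes were: Cln8 (-1.40), Lmbrd1 (-1.34) and Litaf (-1.20). With SB202190 against RPMI 5 were higher, where 1.46% of all measured genes were, led by Ctns (1.34), Slc11a2 (1.24) and Abcb9 (1.24). Of 23 other measured hydrolases 3 were higher in EBSS, beside the same 4.49%: Dpp7 (1.41), Dnase2a (1.15) and Scpep1 (1.06). None of these hydrolases was counted with SB202190 against EBSS. With SB202190 against RPMI Dpp7 was higher (1.07) and Hyal2 lower (-1.06). By median in EBSS against RPMI, V1 (1.19) and the other membrane proteins (0.32) stood above the other hydrolases (0.18), and the other V0 genes (0.01) below them.

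None of 14 measured genes of sorting to lysosomes was counted in any of the 3 comparisons, although 13 of them had a ratio above 0 in EBSS against RPMI, with a median of 0.39. Of the factors that bind CLEAR elements 3 were measured, and none was counted in any comparison. In EBSS against RPMI they had ratios of -0.13 for Tcfeb, 0.01 for Tcfe3 and -0.02 for Mitf, under the names the arrays use. With SB202190 all 3 were below 0, at -0.04, -0.04 and -0.32 against EBSS and at -0.17, -0.03 and -0.34 against RPMI, in the same order. Members with TCACGTG had a median of 0.32 (14 genes) and those without it 0.15 (28 genes) in EBSS against RPMI. With SB202190 the medians were -0.10 and -0.07 against EBSS, and 0.31 and 0.19 against RPMI. The ranges of members with and without the motif overlapped in all 3 comparisons.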

How the data were processed

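RNA of 3 media, 1 sample each, was read on 3 two-colour Agilent arrays. Per the file headers, the scanner software was Agilent Feature Extraction 9.5.3.1. The deposited files give mean and background intensity per spot, not normalized, processed intensity and a log10 ratio, per the file headers. Deposited marks of other kinds say which spots are controls, outliers, saturated or well above background. The authors' deposited table holds log2 ratios, Cy5 over Cy3, made from processed intensities and not centred (medians -0.0854, -0.0766 and -0.166).

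Mean intensities were corrected by normexp (offset 50) and normalized by loess within arrays, with limma 3.58.1 under R 4.3.3. Controls (1639 of 45018 spots), 136 to 178 outlier spots per array and 49 probes of 41174 were left out, and no spot was saturated. A gene took its brightest probe, by GeneName, and 27 members had several. Log2 ratios were fitted by least squares to the loop. The technical SE (0.0667 to 0.22 for members) came from the closure of the loop in 30 bins of intensity, so dye effects of probes can enter it. Simulated data tested this SE only without dye effects and with the same noise at all intensities. Channel intensities were scaled between arrays after loess. The number of arrays limits the precision. Python 3.11.15, numpy 2.4.6, pandas 2.3.3 and matplotlib 3.10.9 were used. Positions of probes are on mm8, with no annotation of that build used here. Named with values were every counted member, the highest and lowest of each subclass, every V0 and membrane gene and at most 3 counted genes of each other list; further members were added after their values were seen. Members and lists were chosen with earlier results of these data known, and 12 alternatives were tried.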

Additional observations from a re-analysis of the deposited data

How the results depend on the processing

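Over all results and alternatives 153 values stayed close to the reported one, 29 moved and 0 called ratios changed sign. Close means within 1.5 times for a count and within 0.121, the median technical SE of a member, for a ratio or a difference of medians. Such small shifts made the 3 members higher in EBSS against RPMI 4, with Npc1 added, under the software's ratios, the authors' deposited table and equal spread. Over all measured genes 8.15%, 8.15% and 5.38% were higher under these, in the same order. Small shifts also turned the sign of the V0 difference with SB202190 against RPMI (0.05) to -0.01 with centring and -0.03 with equal spread, and of the membrane difference (0.01) to -0.02 with equal spread. With arrays centred on their medians 35 members were higher in EBSS against RPMI, where 35.8% of all measured genes were. In that scaling 2 members were lower with SB202190 against EBSS, where 6.61% of all measured genes were. Over all genes 4261 were then higher and 23 lower in EBSS against RPMI. The reported counts were 534 and 337, and the scanner software's ratios gave 970 and 1096. At 1.5-fold the members' counts were 8 higher and 1 lower in EBSS against RPMI, 1 and 4 with SB202190 against EBSS, and 2 and 1 with SB202190 against RPMI. Over all measured genes the shares were 10.9% and 8.97%, 5.13% and 8.98%, and 5.32% and 7.4%, in the same order. With SB202190 against EBSS, Sgsh was higher, making 1, with the scanner software's ratios, without background correction, with equal spread between arrays and in the authors' deposited table. Over all measured genes 6.68%, 2.08%, 2.22% and 6.68% were higher under these, in the same order. The 1 lower member, Gla, became 0 with the median over probes (-0.86) and on the array of both media alone, and the count became 2 on the other 2 arrays and 3 with equal spread. Over all measured genes 2.2%, 2.91%, 3.45% and 5.31% were lower under these, in the same order. The membrane median minus that of hydrolases in EBSS against RPMI (0.26) became 0.41 with equal spread and 0.44 on the array of both media alone. With SB202190 against EBSS it was -0.35 and became -0.23 on that array, and the V0 difference (-0.40) became -0.54 on the other 2 arrays. The causes were not tested. No paired analysis was possible because each medium was 1 sample. Probes near background limit Ctsk, Acp5 and Cd63.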
